A study of Mus musculus with 8 samples.

Results

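The RNAs described here are 231 annotated noncoding RNAs, among them long noncoding RNAs, transcribed pseudogenes, host RNAs of small nucleolar RNAs (snoRNAs), and structural RNAs of the spliceosome and of RNA processing. They were selected on the detection flags of the arrays: a probe had to carry a RefSeq noncoding (NR_) accession and be well above background on all 8 arrays in the control channel or on all 8 in the tumor channel. Of 771 probes with such an accession, which belong to 643 genes, 281 met this rule, and each of the 231 genes was represented by its brightest one. H19, Meg3, Rian and Mirg were left out. The whole series held 14342 genes that could be tested. Among the 231 RNAs, 184 were well above background on all 8 arrays in both channels, 43 in the control channel alone and 4 in the tumor channel alone. Counts of RNAs that rose or fell cover the 184, because an RNA that passed through 1 channel alone had to differ there. The RefSeq table of assembly GRCm38.p6 named 201 of the 231, and the other 30 keep their accession as a name. That table classes 111 as long noncoding RNAs (lncRNAs), 72 as transcribed pseudogenes, 5 as small nuclear RNAs, 3 as snoRNAs, 2 as ribosomal RNAs, 1 each as the RNA of RNase P and of RNase MRP, and 6 as coding genes.

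Each of the 8 arrays compared RNA of 1 hepatocellular carcinoma (HCC) from a male miR-122 KO mouse, labelled with Cy5, with liver RNA of miR-122 floxed male mice, labelled with Cy3. The protocol describes the control livers as wild type and age-matched, and both genotypes were on a mixed C57BL/6J and 129S/Svj background. miR-122 is the most abundant microRNA of hepatocytes. The labels call the 8 tumors biological replicates, do not say whether any came from the same mouse, and do not say whether the control RNA was 1 pool or came from 8 animals. P-values therefore measure the spread between these arrays. Because the tumor was red on every array, an effect of the dye and an effect of the tumor cannot be told apart, and liver without a tumor from the knockout mice was not part of the comparison.

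Noncoding RNAs reach the cell's functions by different routes. Small nucleolar RNAs guide the modification of ribosomal and spliceosomal RNA and are mostly cut from the introns of host genes, whose spliced exons often have no protein to make and are degraded by nonsense-mediated decay. Many snoRNA hosts start with a pyrimidine tract of the kind found at ribosomal protein genes. Other long RNAs stay in the nucleus, such as Neat1, the scaffold of paraspeckles, and Malat1, an RNA of nuclear speckles. Antisense RNAs are transcribed from the strand opposite a coding gene, and transcribed pseudogenes are copies of coding genes that no longer make the protein. In liver many pseudogenes lie within families of secreted inhibitors and of cytochromes P450.

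Of 11 snoRNA hosts described below 10 lay above 0, so the starts of 5 of them are shown, from 40 bases before the annotated start to the base 29 after it, taken from RefSeq on GRCm38.p6, with the longest run of C and T letters within 20 bases of the start in capitals. The 3 hosts at chr17:34952439-34952508 (minus strand), chr11:62602837-62602906 (plus strand) and chr11:116671620-116671689 (plus strand) rose in the tumors, and Snhg1 at chr19:8723447-8723516 (plus strand) and Snhg12 at chr4:132308638-132308707 (plus strand) did not pass the threshold of size.
1110038B12Rik: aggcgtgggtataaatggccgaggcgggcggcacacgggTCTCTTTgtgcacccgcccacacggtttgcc
2410006H16Rik: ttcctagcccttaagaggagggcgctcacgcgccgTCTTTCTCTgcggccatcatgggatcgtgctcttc
Snhg16: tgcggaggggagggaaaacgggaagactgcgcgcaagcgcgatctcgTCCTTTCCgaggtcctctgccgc
Snhg1: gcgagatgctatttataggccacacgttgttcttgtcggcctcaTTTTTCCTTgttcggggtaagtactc
Snhg12: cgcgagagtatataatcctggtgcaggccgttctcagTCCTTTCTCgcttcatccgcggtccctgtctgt

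The longest run of pyrimidines in these 5 starts was 7 letters in 1110038B12Rik, 9 in 2410006H16Rik, 8 in Snhg16, 9 in Snhg1 and 9 in Snhg12. Over all 32851 annotated starts of 27025 genes the median longest run in the same window was 5, and 16.5% of starts held a run of 8 or more. Of the 10 hosts with a listed start, 5 held such a run. The letters TATAA, read on either strand from 40 to 15 bases before the start, were in 4 of the 10 hosts (1110038B12Rik, Snhg7, Snhg1 and Snhg12) and in 4.4% of all starts. These letters were searched for after the sequences had been read, and a match is a description of the sequence. The starts of Snhg7, 4833422C13Rik, Snhg3, Snhg17 and Dancr, not shown, were searched in the same way, and Snhg6 had no entry. Their longest runs were 6, 5, 5, 6 (7 at a second start of Snhg17) and 8 letters. The 5 shown are not those with the highest ratios, since Snhg7 (0.82) and 4833422C13Rik (0.50) lay above Snhg12 (0.34). A run need not lie at the start itself. It began 7 bases after it in Snhg16 and 5 before it in 2410006H16Rik.

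The values below are of host RNAs and not of mature microRNAs. Of the microRNAs of the 3 named hosts in both channels, 4 that are well known in liver and in cancer are shown. The annotation used placed miR-92a alone of its cluster inside Mir17hg. The main mature strands of these 4, from RefSeq on GRCm38.p6, are given with the seed, bases 2 to 8, in capitals: miR-15a and miR-16 from Dleu2 (chr14:61632075-61632096 and chr14:61631936-61631957, both minus strand), miR-22 from Mir22hg (chr11:75463772-75463793, plus strand) and miR-92a from Mir17hg (chr14:115044476-115044496, plus strand).
mmu-miR-15a-5p: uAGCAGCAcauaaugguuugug
mmu-miR-16-5p: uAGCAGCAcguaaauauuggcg
mmu-miR-22-3p: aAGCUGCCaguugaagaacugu
mmu-miR-92a-3p: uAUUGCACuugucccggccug

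The 2 microRNAs of Dleu2 share 1 seed, and the other two each have their own.

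Most of the noncoding RNAs differed little between tumor and liver. An RNA was called higher or lower if the log2 ratio of tumor over control averaged at least 1 in size over arrays and had an adjusted p under 0.05 (limma, Benjamini-Hochberg over all genes tested). Of the 184 RNAs detected in both channels, 14 (7.61%) were higher in the tumors, 17 (9.24%) were lower and 153 were not called. Among all 11242 genes detected on all arrays in both channels, 10.2% were called higher and 6.76% lower, and among all 14342 genes tested 9.55% and 5.95%. The shares for the noncoding RNAs lie near these backgrounds. Their median log2 ratio was 0.05, against 0.01 for the 11058 other genes detected in both channels, and the median SD over arrays was 0.41 against 0.38. A further 64 RNAs had an adjusted p under 0.05 at a smaller ratio, 36 above and 28 below 0. The ratio had the same sign on all 8 arrays for 25 of the 31 called RNAs, and for 65 of the 184. On the 4 arrays of the first row of the slide alone, 14 RNAs were called higher and 20 lower, and on the 4 of the second row 10 and 12. With the row as a block the counts were 14 and 17.

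**Figure D1:**
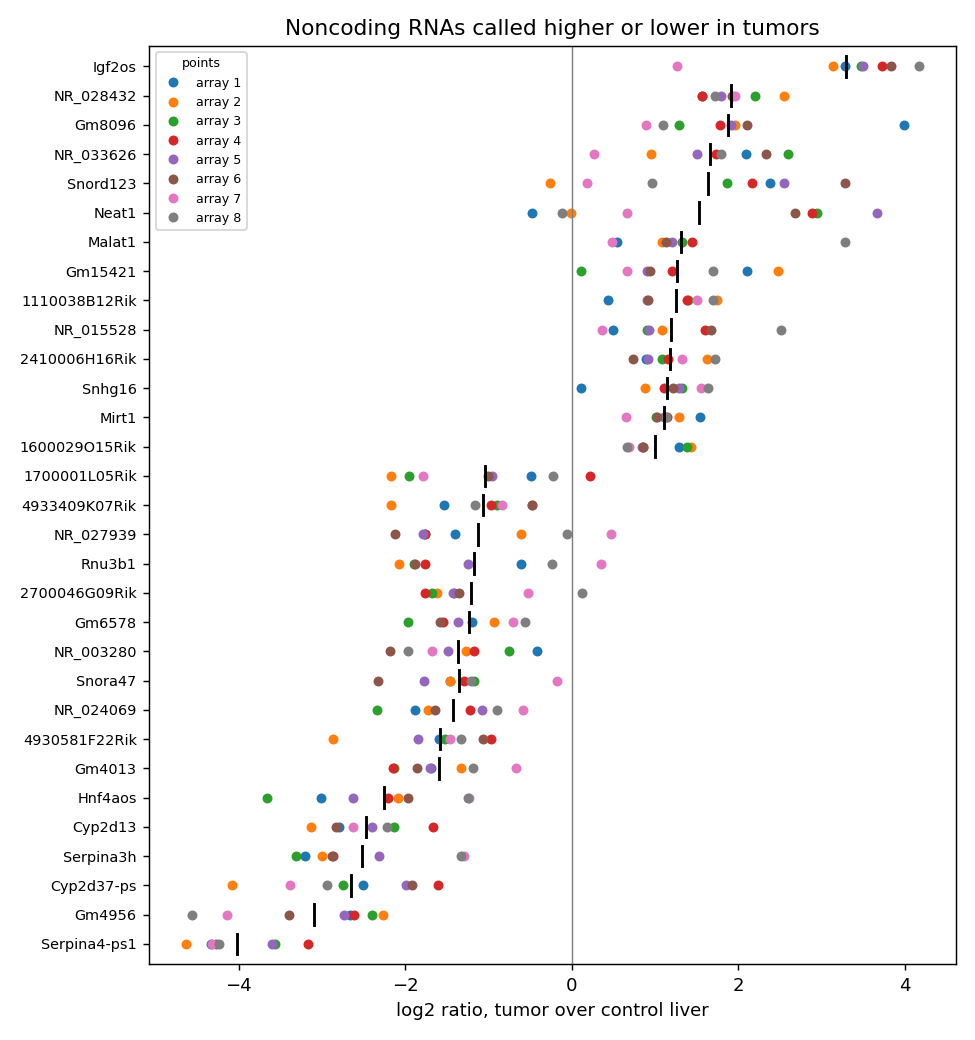
Log2 ratio of tumor over control liver on each of the 8 arrays (coloured points) for the 31 noncoding RNAs called higher or lower, ordered by their mean (black bars). Igf2os is the highest at a mean of 3.30 and Serpina4-ps1 the lowest at -4.01, and Neat1 is above 0 on 5 of 8 arrays.

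Both directions were found among lncRNAs and pseudogenes. Of 82 lncRNAs in both channels 7 rose and 5 fell, with a median ratio of 0.04, and of 63 transcribed pseudogenes 3 rose and 7 fell, with a median of 0.14. Of the 23 accessions without an entry 3 rose and 3 fell. The spread over arrays was wider among the tumors than among the controls: the SD of the tumor level was larger for 151 of the 184 RNAs (82.1%), with a median of 0.38 against 0.22. The same held for 83.7% of the other genes.

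Some arrays stood apart. The ratios of the noncoding RNAs on array 8 correlated with those on the other arrays at a mean r of 0.477 and those on array 7 at 0.537, against 0.651 to 0.718 for the rest (across RNAs that share arrays and channels). The control channels of arrays 1 and 2 were the most alike of any pair, with r = 0.9944 across the RNAs against 0.9924 for the next pair. The control channel of array 8 also held skeletal muscle markers at a summed signal of 68800, against at most 1770 in the other controls, and the part of this in any result was not tested. The share of probes above background in the tumor channel was 40% on array 8 and 45.6% to 53.3% on the others.

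The largest rise was that of Igf2os, the RNA transcribed opposite the fetal growth factor gene Igf2. Its log2 ratio was 3.28, 3.14, 3.48, 3.73, 3.50, 3.84, 1.26 and 4.17 on arrays 1 to 8. The tumor was above its control on every array, with array 7 far below the other 7. The mean was 3.30 ± 0.89 (SD, n = 8), 9.84-fold, with an adjusted p of 1.52e-05. The tumor level after normalization between arrays ran from 7.73 on array 7 to 12.16 on array 6, and the control level from 6.48 to 8.32 on the same 2 arrays. The groups overlapped through array 7, whose tumor level lay within the range of the controls. Igf2, the coding gene it overlaps, rose by 3.45 ± 0.27, from 3.02 on array 7 to 3.93 on array 8. The difference between the RNA and Igf2 was -0.15 ± 0.68, with the RNA above Igf2 on 5 of 8 arrays.

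The opposite-strand RNA of Hnf4a, the gene of a transcription factor that sets hepatocyte identity, fell far more than its coding partner. The log2 ratio of Hnf4aos was -3.01, -2.09, -3.66, -2.21, -2.63, -1.97, -1.23 and -1.24 on arrays 1 to 8. It was below 0 on every array, with the smallest falls on arrays 7 and 8. The mean was -2.26 ± 0.83, 4.78-fold lower in tumors, with an adjusted p of 9.61e-05. Hnf4a itself had a ratio of -0.29 ± 0.30, and the RNA lay below it on all 8 arrays (Hnf4aos minus Hnf4a, -1.97 ± 0.89). Hepatocyte markers moved in the same direction as Hnf4aos: 5 of 14 fell and none rose, with a median of -0.88, and their summed tumor signal ran from 799000 to 1150000 against 1470000 to 1840000 in control. Their part in the fall was not tested. In bulk tissue, fewer cells of a type and less RNA in each cell cannot be told apart.

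Of 8 opposite-strand and antisense RNAs in both channels 1 rose, 1 fell and the median was 0.02. Stk35os1 had a ratio of 0.57 ± 0.29 and was above 0 on 8 arrays, Fbxl12os had 0.05 ± 0.60 (above 0 on 4), Dio3os 0.04 ± 0.33 (on 3) and Map2k3os -0.01 ± 0.32 (on 3). Dlx6os2 had -0.22 ± 0.15 (above 0 on 1) and Zbtb11os1 -0.32 ± 0.42 (on 2). Rab10os (-0.29 ± 0.59, above 0 on 2) and Appbp2os (-0.56 ± 0.30, on 1) passed through the control channel alone.

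**Figure D2:**
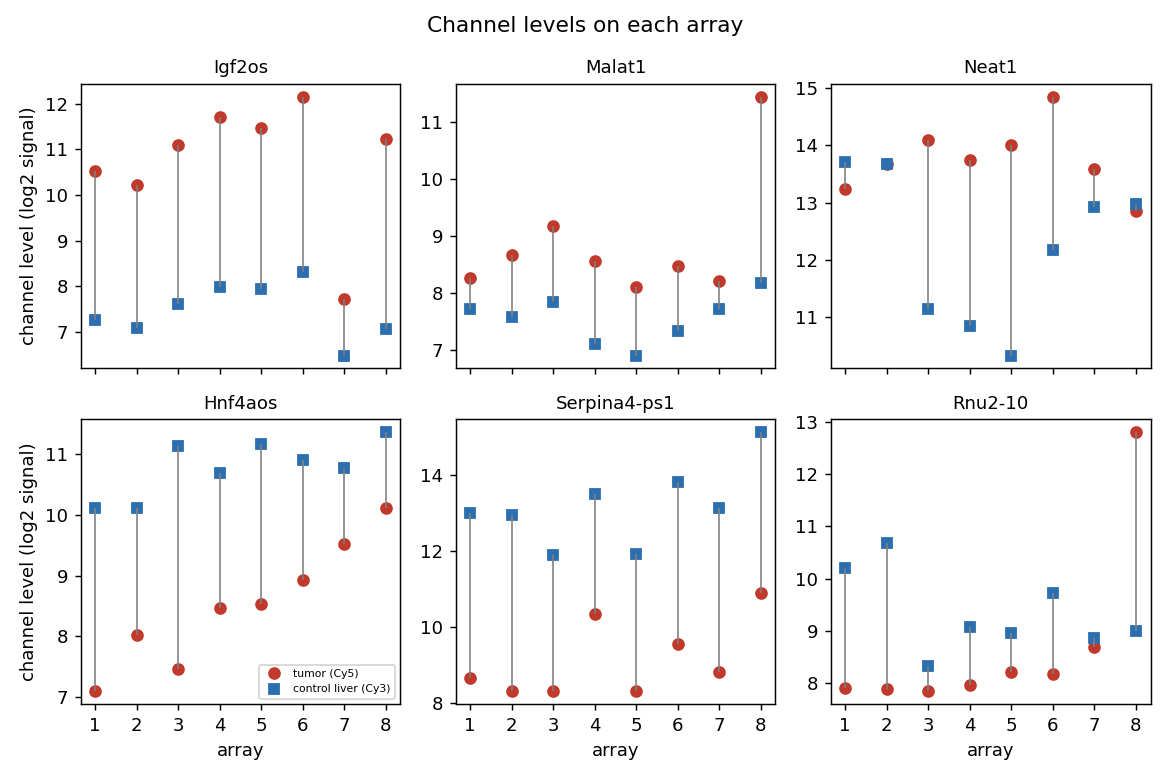
Channel levels (log2 signal after normalization between arrays) of 6 noncoding RNAs on arrays 1 to 8, tumor in red circles and control liver in blue squares, joined by a line on each array. Neat1 differs mainly through control levels from 10.33 to 13.71, and Rnu2-10 is above its control on array 8 alone.

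The nuclear RNA Neat1 was higher on average, and its call rested on 4 arrays. Its log2 ratio was -0.47, -0.01, 2.95, 2.89, 3.67, 2.68, 0.66 and -0.11 on arrays 1 to 8. Arrays 3 to 6 lay at 2.68 or above and the others at 0.66 or below. The mean was 1.53 ± 1.67 with an adjusted p of 0.0279, and it lost its call without array 3, 4, 5 or 6 (adjusted p 0.0683 to 0.07). The control level ranged from 10.33 to 13.71, with an SD of 1.31, and the tumor level from 12.86 to 14.85, with an SD of 0.59. Of 13 genes of paraspeckle proteins, which assemble on Neat1, none reached the size of a call and the median was -0.03. Below that size, Pspc1 (0.73 ± 0.49) and Cpsf6 (0.57 ± 0.33) had adjusted p of 0.00385 and 0.00287.

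Malat1, its neighbour on chromosome 19, was higher on every array. Its log2 ratio was 0.55, 1.08, 1.32, 1.44, 1.20, 1.13, 0.49 and 3.28 on arrays 1 to 8. Array 8 stood above the other 7, which ran from 0.49 to 1.44. The mean was 1.31 ± 0.86 with an adjusted p of 0.00262, and without array 8 it was 1.03. On the second row of the slide alone Malat1 was at 1.52 with an adjusted p of 0.0689 and was not called. Among the other nuclear and X-linked RNAs of the list, Pvt1 had a ratio of 0.24 ± 0.50 (above 0 on 4 arrays), Tug1 0.15 ± 0.37 (on 6) and Norad, which binds Pumilio proteins, -0.70 ± 0.42, below 0 on all 8 arrays. The other 3 probes of Norad, detected on all arrays, gave -0.24, -0.27 and 0.21. Ftx, an RNA of the X-inactivation center, passed through the control channel alone at -0.14 ± 0.16 (above 0 on 1 array). Of 6 of this list in both channels 2 rose, none fell and the median was 0.20.

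RNAs that hold snoRNA genes lay mostly above 0. Of 11 in both channels that contain an annotated snoRNA gene, 10 had a ratio above 0, 3 rose and none fell, and the median was 0.52. Of 71 lncRNAs without one, 33 were above 0, 4 rose, 5 fell and the median was -0.03. No test was made of this difference, since the group was formed after earlier results of these data were known. The 3 that rose hold C/D box snoRNAs, which guide methylation of ribosomal RNA. The 23 RNAs of both channels without a RefSeq entry could not be checked for snoRNA genes and are in neither group.

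1110038B12Rik, whose gene contains Snord52, had log2 ratios of 0.44, 1.75, 1.40, 1.38, 0.91, 0.92, 1.51 and 1.70 on arrays 1 to 8. All 8 were above 0 and array 1 was the lowest. Its mean was 1.25 ± 0.45 with an adjusted p of 0.000125. For 2410006H16Rik, which contains Snord49a, Snord49b and Snord65, the values were 0.89, 1.63, 1.08, 1.16, 0.92, 0.74, 1.33 and 1.72. All were at 0.74 or above, with a mean of 1.18 ± 0.35 and an adjusted p of 5.43e-05. Snhg16, with Snord1a, Snord1b and Snord1c inside, had values of 0.11, 0.88, 1.33, 1.11, 1.29, 1.22, 1.55 and 1.64. Array 1 was close to 0 and the other 7 at 0.88 or above, with a mean of 1.14 ± 0.48 and an adjusted p of 0.00029. Snhg16 fell short of the size of a call on the first row of the slide alone (0.85), without arrays 7 and 8 (0.99) and as the mean of its probes (0.88).

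Snhg6 (0.96 ± 0.31), Snhg7 (0.82 ± 0.51) and Snhg1 (0.52 ± 0.40) were above 0 on all 8 arrays with adjusted p of 0.000103, 0.0025 and 0.00878, and did not reach the size of 1. Snhg6 reached it without array 6, at 1.04. 4833422C13Rik had a ratio of 0.50 ± 0.16, above 0 on 8 arrays, with a spread among the smallest 5 of the 184. Its mean log2 signal was low, at 6.79, with the dimmest RNA of the selection at 6.41. The part of the low signal in its small ratio and spread was not tested. Acot12, the coding gene it overlaps, fell, with a mean of -1.73. Snhg12 had 0.34 ± 0.49 (above 0 on 6 arrays), Snhg17 0.06 ± 0.39 (on 5) and Dancr -0.02 ± 0.35 (on 4). Snhg3 had a mean of 0.08 and an SD of 1.40, from -1.77 on array 3 to 3.08 on array 8, and was above 0 on 4 arrays. Snhg10, listed with the hosts but without an annotated snoRNA inside, had -0.14 ± 0.36 (above 0 on 1 array) and holds a microRNA gene. By names alone, 8 RNAs of the list of snoRNA hosts were in both channels, of which 1 rose, none fell and the median was 0.43.

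Of 17 genes of snoRNP proteins, 1 was called lower (Nop10, of the H/ACA box particles, -1.07 ± 0.40, adjusted p 0.000178) and none higher, with a median of 0.14. A further 6 had an adjusted p under 0.05 above 0 and 2 below 0 without reaching the size of a call. Nop58 (0.85 ± 0.27) and Nop56 (0.72 ± 0.33), core proteins of the C/D box particles, were above 0 on all 8 arrays, as were Ncl (0.75 ± 0.27), Npm1 (0.55 ± 0.13) and Nhp2 (0.49 ± 0.25). Fbl, the methyltransferase of the C/D box particles, was at -0.06 ± 0.28. Of 12 genes of nonsense-mediated decay, the pathway that degrades many spliced host RNAs, 1 rose (Smg1, a kinase of the pathway, 1.06 ± 0.27, adjusted p 3.8e-05) and none fell, with a median of 0.09. Below the size of a call, 1 more had an adjusted p under 0.05 above 0 and 3 below 0, among them Upf1 (-0.65 ± 0.30), the central helicase. Cell cycle markers rose in 9 of 11 and none fell, and their part in the ratios of the hosts was not tested.

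**Figure D3:**
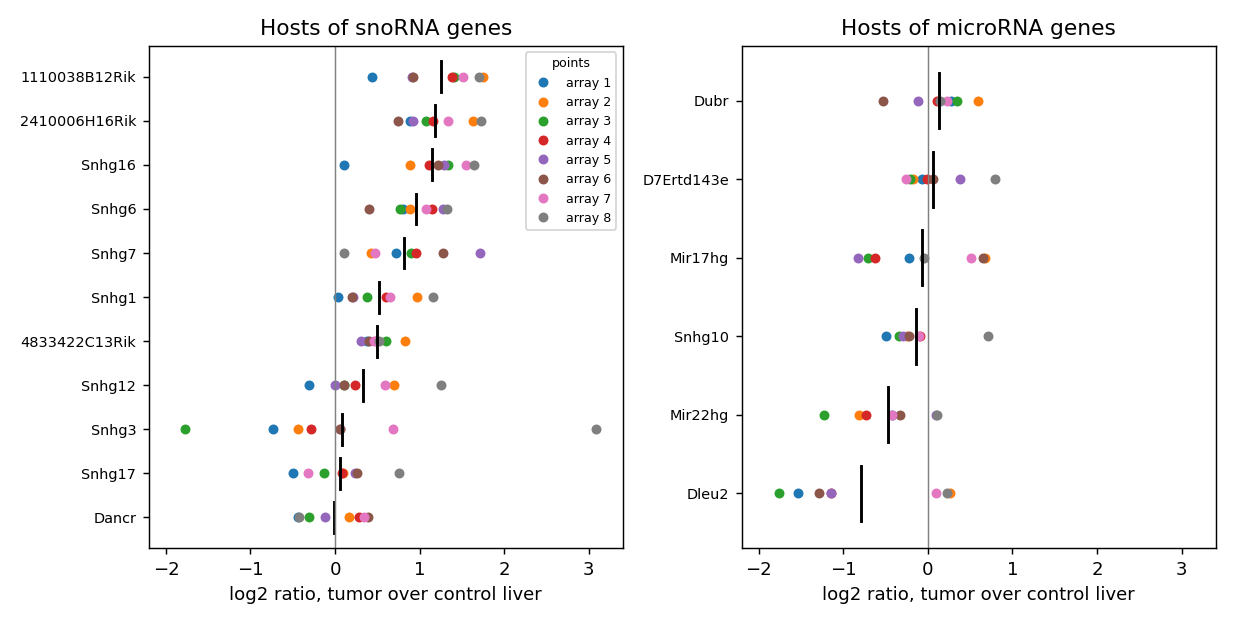
Log2 ratio of tumor over control liver on each array (coloured points) with the mean (black bar) for 11 RNAs that contain snoRNA genes, left, and 6 that contain microRNA genes, right. The means of 10 of the 11 snoRNA hosts are above 0, from 0.06 to 1.25, and those of the microRNA hosts run from -0.78 to 0.13.

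Of 6 hosts of microRNAs none was called, and their median was -0.11. Dleu2, which gives miR-15a and miR-16, had log2 ratios of -1.53, 0.26, -1.76, -1.14, -1.15, -1.29, 0.10 and 0.23 on arrays 1 to 8. Arrays 1, 3, 4, 5 and 6 were at -1.14 or below and the other 3 between 0.10 and 0.26. Its mean was -0.78 ± 0.84 with an adjusted p of 0.0279, under the size of a call, and the adjusted p was 0.0646 to 0.0697 without array 1, 3, 4, 5 or 6. It reached that size without arrays 7 and 8 (-1.1), without arrays 1, 2 and 8 (-1.05), with array weights (-1.02) and with the deposited processed signals (-1.13). Trim13, the coding gene that it overlaps, had a ratio of 0.56. Mir22hg, the host of miR-22, was at -0.47 ± 0.45 (above 0 on 2 arrays) and Mir17hg, the host of miR-92a and its cluster, at -0.07 ± 0.63 (on 3). D7Ertd143e, over the cluster of embryonic stem cell microRNAs, was at 0.06 and Dubr at 0.13. Mir99ahg passed through the control channel alone at -0.32 ± 0.17 (above 0 on 0). No gene of 15 for microRNA processing proteins reached the size of a call, and their median was 0. Below that size, 4 had an adjusted p under 0.05 above 0, with Drosha, which cuts the primary transcript, the highest at 0.96 ± 0.26, and 3 below 0, with Prkra the lowest at -0.69 ± 0.31.

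The 3 imprinted RNAs of the list were not called. Igf2os, which rose and is described above, was not counted on this list. Airn, the antisense RNA of Igf2r, had a ratio of 0.43 ± 0.47 (above 0 on 7 arrays), Peg13 0.33 ± 0.51 (on 6) and Kcnq1ot1 0.28 ± 0.48 (on 6). Their coding neighbours had ratios of 0.88 for Igf2r, 0.40 for Trappc9 and 0.70 for Kcnq1, none of them called.

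The small structural RNAs of the list had 1 rise and 2 falls among 11, with a median of -0.14. RNAs without a RefSeq entry could not be placed on this list. The values here and in the next paragraph are probe signals after amplified labelling. Whether they follow the levels of the mature RNAs was not tested. Snord123, a C/D box snoRNA gene, had log2 ratios of 2.38, -0.26, 1.86, 2.17, 2.55, 3.28, 0.18 and 0.96 on arrays 1 to 8. It was above 0 on 7 arrays and lowest on arrays 2 and 7, with a mean of 1.64 ± 1.23 and an adjusted p of 0.00485. On the second row of the slide alone Snord123 was at 1.74 with an adjusted p of 0.0718. Sema5a, the coding gene within 10 kb of it, rose by 2.53 ± 1.70 and was above background on 7 of the 8 tumor arrays. Snora47, of the H/ACA box class that guides pseudouridylation, had values of -1.46, -1.46, -1.17, -1.29, -1.77, -2.32, -0.17 and -1.21. Array 7 was the nearest to 0, and the mean was -1.36 ± 0.61 with an adjusted p of 0.000351. Rnu3b1, the U3 RNA that acts in cutting the ribosomal RNA precursor, had values of -0.61, -2.07, -1.89, -1.76, -1.24, -1.88, 0.35 and -0.24. It was above 0 on array 7 alone, its mean was -1.17 ± 0.90, and on the second row of the slide alone it was at -0.75 with an adjusted p of 0.213.

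For 4 structural RNAs, array 8 lay far above the other 7. Rnu2-10, the U2 RNA of the spliceosome, had log2 ratios of -2.29, -2.81, -0.49, -1.1, -0.77, -1.55, -0.18 and 3.81 on arrays 1 to 8. Its mean was -0.67 ± 2.02 with an adjusted p of 0.373, and without array 8 it was -1.31 with an adjusted p of 0.00631 and passed as a fall. The tumor level was 12.80 on array 8 and 7.84 to 8.68 on the others. Rnu1b6, the U1 RNA, was at 1.39 on array 8 and at -0.67 to -0.21 elsewhere. Rmrp, the RNA of RNase MRP, was at 1.19 against -1.27 to -0.11, and Rpph1, the RNA of RNase P, at 1.19 against -0.63 to 0.11. Of 11 genes of RNase P and RNase MRP proteins 2 fell, Rpp25l (-1.29 ± 0.28, adjusted p 1.37e-05) and Rpp40 (-1.14 ± 0.64, adjusted p 0.00128), and the median was -0.01. Rnu12 (0.55 ± 0.33, above 0 on 8 arrays), Rn28s1 (0.11 ± 0.30, on 4), Snora74a (0.08 ± 0.40, on 4) and Rnu7 (-0.50 ± 0.28, on 1) were not called.

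**Figure D4:**
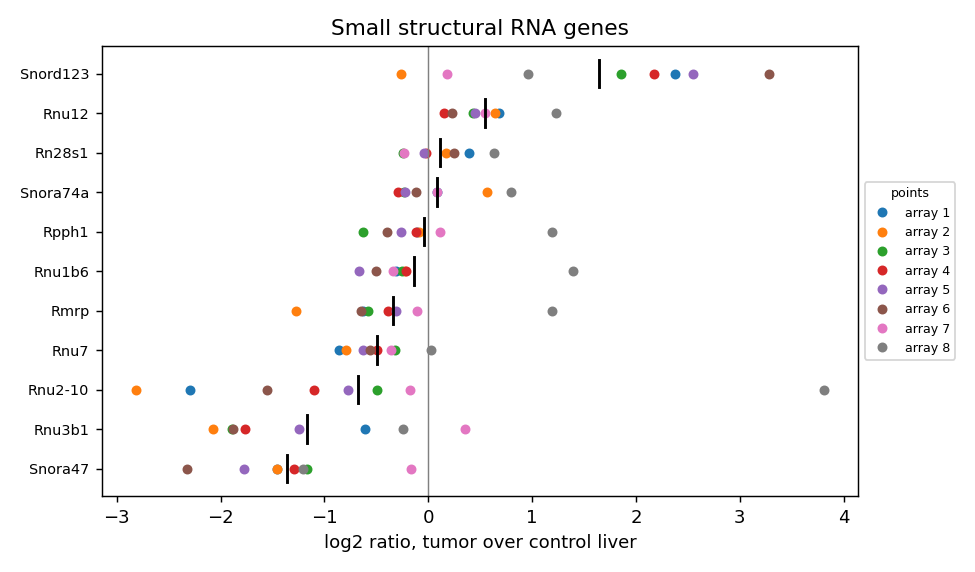
Log2 ratio of tumor over control liver on each array (coloured points) with the mean (black bar) for the 11 small structural RNA genes. Array 8 (grey) is the highest for Rnu12, Rn28s1, Snora74a, Rpph1, Rnu1b6, Rmrp, Rnu7 and Rnu2-10.

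The 5 largest falls were those of transcribed pseudogenes. A probe for a pseudogene can also bind RNA of the near-identical coding gene. The RNA behind the signal is therefore uncertain for these and for every other pseudogene named here. Serpina4-ps1, a pseudogene of the serpins, which are secreted protease inhibitors, had log2 ratios of -4.33, -4.63, -3.56, -3.17, -3.60, -4.27, -4.32 and -4.23 on arrays 1 to 8. All 8 were at -3.17 or below, and the tumor and control levels did not overlap, the controls being at 11.90 or above. Its mean was -4.01 ± 0.50, 16.2-fold lower in tumors, with an adjusted p of 2.54e-07. Serpina3h, annotated as a pseudogene of the Serpina3 group, had values of -3.20, -3.0, -3.31, -2.86, -2.31, -2.88, -1.29 and -1.33. Arrays 7 and 8 were the nearest to 0, and the mean was -2.52 ± 0.81 with an adjusted p of 4.21e-05.

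Both cytochrome P450 pseudogenes of the Cyp2d cluster, a family that oxidizes drugs, fell. Cyp2d37-ps had log2 ratios of -2.51, -4.08, -2.74, -1.60, -1.99, -1.92, -3.38 and -2.94 on arrays 1 to 8, and a mean of -2.64 ± 0.82 with an adjusted p of 3.63e-05. Cyp2d13 had values of -2.79, -3.13, -2.13, -1.66, -2.40, -2.83, -2.62 and -2.22, and a mean of -2.47 ± 0.47 with an adjusted p of 3.45e-06. Array 2 was the lowest and array 4 the highest for both. Cyp2d34, the nearest tested coding gene of the cluster to each of them, had a ratio of 0.04 ± 0.48. Gm4956, on chromosome 1, had values of -2.66, -2.27, -2.40, -2.61, -2.73, -3.40, -4.14 and -4.56. Arrays 7 and 8 were the lowest, the reverse of Serpina3h, and the mean was -3.09 ± 0.85 with an adjusted p of 1.75e-05.

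Among the pseudogenes that rose, Gm8096 had log2 ratios of 3.99, 1.96, 1.29, 1.78, 1.91, 2.11, 0.89 and 1.1 on arrays 1 to 8. Array 1 stood above the rest, and the mean was 1.88 ± 0.96 with an adjusted p of 0.000623. Gm15421 had values of 2.11, 2.48, 0.11, 1.20, 0.90, 0.94, 0.67 and 1.70, with arrays 1 and 2 the highest. Its mean was 1.26 ± 0.78 with an adjusted p of 0.00193, and without arrays 1, 2 and 8 it was 0.77, under the size of a call. 1600029O15Rik had a mean of 1.00 ± 0.31 and lost its call without array 1, 2 or 3 (0.94 to 0.96).

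Of the 15 RNAs in both channels whose names mark them as pseudogenes or related sequences, 2 fell, none rose and the median was 0.07. Besides those 2, Tubb2a-ps2 (0.85 ± 0.52, above 0 on 8 arrays) was the highest, and Gpr137b-ps (0.64 ± 0.50, on 7), Pisd-ps1 (0.42 ± 0.72, on 6), Pdxk-ps (0.36 ± 0.41, on 6), Olfr1372-ps1 (0.34 ± 0.21, on 8), Hmgb1-rs17 (0.29 ± 0.23, on 7) and Selenok-ps1 (0.20 ± 0.27, on 7) followed. Below them were Ppp4r1l-ps (0.07 ± 0.27, on 6), Pisd-ps3 (0.04 ± 0.85, on 4), Zfp133-ps (0.01 ± 0.31, on 3), Tyms-ps (-0.08 ± 0.38, on 3), Tdg-ps2 (-0.11 ± 0.30, on 2) and Smarca5-ps (-0.27 ± 0.31, on 1). Rdh18-ps (-0.20 ± 0.57, on 3) passed through the control channel alone.

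Of the lncRNAs without a known role that fell, Gm4013 had log2 ratios of -1.69, -1.33, -2.13, -2.14, -1.70, -1.86, -0.67 and -1.19 on arrays 1 to 8, and a mean of -1.59 ± 0.50 with an adjusted p of 5.16e-05. 4930581F22Rik had values of -1.59, -2.86, -1.52, -0.97, -1.85, -1.07, -1.46 and -1.33, and a mean of -1.58 ± 0.59 with an adjusted p of 0.00012. Both were below 0 on every array. 2700046G09Rik, which overlaps Sgms1, followed at -1.21 ± 0.66 (-0.80 with an adjusted p of 0.112 on the second row of the slide alone), then 1700001L05Rik at -1.04 ± 0.86, which lost its call without array 2, 3 or 7 (-0.94 to -0.88). Among pseudogenes, Gm6578 was at -1.23 ± 0.48 and 4933409K07Rik at -1.06 ± 0.56, and 4933409K07Rik lost its call without array 1 or 2 (-1.0 and -0.91), without arrays 1, 2 and 8 (-0.73) and as the mean of its probes (-0.57). The brightest probe of Mirt1 rose by 1.11 ± 0.25, with every array between 0.65 and 1.54, and a second probe gave -0.70 ± 0.46. The mean of both was 0.21 with an adjusted p of 0.118, and the brightest probe alone fell short of the size of a call on the second row of the slide (0.98) and without arrays 1, 2 and 8 (0.99).

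RNAs without an entry in the RefSeq annotation used were among both directions. They may be named elsewhere, and could not be placed on the lists or searched for small RNA genes. NR_028432 had log2 ratios of 1.57, 2.55, 2.20, 1.57, 1.79, 1.92, 1.96 and 1.72 on arrays 1 to 8, the most even of the large rises, with a mean of 1.91 ± 0.33 and an adjusted p of 3.37e-06. NR_033626 had values of 2.10, 0.95, 2.60, 1.73, 1.51, 2.33, 0.27 and 1.79, and a mean of 1.66 ± 0.76 with an adjusted p of 0.000346. For NR_033626 array 7 was the lowest. NR_015528 had values of 0.50, 1.09, 0.91, 1.6, 0.93, 1.67, 0.37 and 2.52, and a mean of 1.20 ± 0.70 with an adjusted p of 0.00151. On the second row of the slide alone NR_015528 was at 1.37 with an adjusted p of 0.0502. Of those that fell, NR_024069 had values of -1.88, -1.72, -2.34, -1.22, -1.08, -1.64, -0.59 and -0.90, and a mean of -1.42 ± 0.58 with an adjusted p of 0.000196. NR_003280, a bright probe with a mean control level of 14.50, had values of -0.41, -1.27, -0.75, -1.17, -1.48, -2.18, -1.68 and -1.97. Its mean was -1.36 ± 0.59 with an adjusted p of 0.000296, and on the first row of the slide alone NR_003280 was at -0.90. NR_027939 fell by 1.13 on average, with an SD of 0.94, and lost its call without array 6 (-0.98).

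The RNAs with the widest spread over arrays differed in sign between arrays. Gm10319 had a mean of 0.33 and an SD of 2.11, from -2.72 on array 2 to 3.35 on array 5 and above 0 on arrays 3 to 6. Rps4l had a mean of -0.80 and an SD of 1.83, with 3 arrays above 0 and arrays 2, 3 and 8 at -2.40 or below. NR_002840 varied in both channels, from 8.15 to 12.94 in tumor and from 7.65 to 12.26 in control, with a mean ratio of 0.96 and an SD of 1.92. Without array 8, where its ratio was -2.50, the mean was 1.45 with an adjusted p of 0.0223 and the RNA passed as a rise. The narrowest spreads were those of Gm15348 (0.20 ± 0.11), Gm11961 (-0.21 ± 0.15), Dlx6os2 (-0.22 ± 0.15), 1700008J07Rik (-0.34 ± 0.15) and 4833422C13Rik. Also without array 8, Gm5801 (-1.59) and 1110020A21Rik (-1.06) passed as falls and NR_033217 (1.04) as a rise. NR_033217 also passed without array 1 (1.08) or array 3 (1.02), and 1110020A21Rik without array 7 (-1.04).

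The RNAs were set beside their nearest tested coding genes in the RefSeq annotation. For 87 of the 184 that gene overlapped the RNA or lay within 10 kb of it and was detected on all arrays in both channels. Across the 29 lncRNAs that overlapped their coding gene, the ratios correlated at r = 0.601, and without Igf2os at 0.211 across the other 28. Across 21 lncRNAs farther away than 10 kb r was 0.283, and 0.161 across 20 without 1110038B12Rik. The pair left out in each is the one that moved r most, chosen after the values were seen. For 10 overlapping pseudogenes r was -0.089. Pairs share arrays and channels, so these values are descriptions. Of the 14 called RNAs among the 87 pairs, 5 had a called coding gene, 4 of them called the same way. Beside RNAs that were not called, 8 coding genes were called. Among all genes detected on all arrays in both channels, 10.2% were called higher and 6.76% lower.

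In 17 of the 87 pairs the RNA and its coding gene differed by at least 1 on the log2 scale with the same sign on all 8 arrays, the RNA being the higher in 6 and the lower in 11. No test was made of these pairs. The same count was not made for pairs of other genes, so the share cannot be called particular to noncoding RNAs. 4833422C13Rik, on the strand opposite Acot12, a thioesterase gene of the liver, lay above it by 2.23 ± 0.96. The RNA was dim, at a mean level of 6.53 in control and 7.03 in tumor, and the part of this was not tested. BC037032 had a ratio of -0.03 while Oxct1, the gene of the enzyme that begins ketone body use, which it overlaps on the opposite strand, rose by 1.86. 1700001L05Rik fell beside Arfgap3, which rose by 1.28. Gm4013 lay below Rbm27, whose ratio was 0.20, by 1.78 on average (-1.78 ± 0.39), and 2700046G09Rik below Sgms1, whose ratio was -0.09, by 1.11 (-1.11 ± 0.48). Gm10653, a pseudogene that overlaps Calml4, had -0.17 while Calml4 rose by 3.25. As for the other pseudogenes, the RNA behind the signal of Gm10653 is uncertain.

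**Figure D5:**
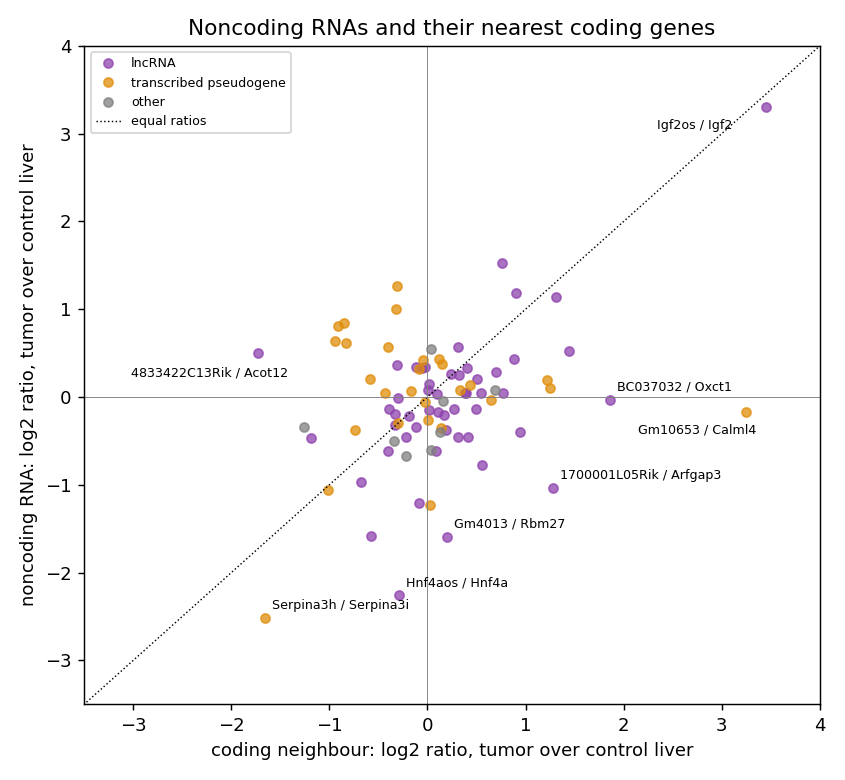
Mean log2 ratio of the noncoding RNA (vertical) against that of its nearest coding gene (horizontal) for the 87 pairs that overlap or lie within 10 kb, coloured by biotype, with a dotted line where the ratios are equal. Igf2os lies near the line with Igf2, while the difference from the coding gene is -1.97 for Hnf4aos and 2.23 for 4833422C13Rik.

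RNAs detected through 1 channel alone are given by their values, since the selection required a difference in detection. Of the 4 of the tumor channel, NR_003640 was well above background on 0 of 8 controls. Its ratios were 0.92, 4.87, 0.49, 1.31, 1.03, 3.76, 5.03 and 3.66 on arrays 1 to 8, so that arrays 2, 6, 7 and 8 lay apart from the other 4. On average the tumor level was 6.20-fold the control bound. The bound is the larger of the measured level and the lowest level of any probe above background on that array. Here its mean equalled the measured control mean of 6.19, so the fold is that of the mean ratio. Arrays 1, 3, 4 and 5 had log2 ratios of 1.31 or below. The other 3 were 5031434O11Rik (0.65 ± 0.27), 2900005J15Rik (0.11 ± 0.30) and Gm15760 (-0.04 ± 0.23), each above background on 7 controls. Of the 43 of the control channel, Gm7854, B330016D10Rik and 1700049L16Rik were not well above background in any tumor by any of their probes. On average their control level was 1.72-fold, 1.42-fold and 1.36-fold the tumor bound. The probe that represents NR_027875 was also not well above background in any tumor, but a brighter probe of it, detected in 7 tumors and 7 controls, gave -0.42 ± 1.89. These bounds compare the channels and are open to dye bias. The ratios of the 43 ran from -1.32 for Gm8883 to 0.40 for D5Ertd605e, with a median of -0.14.

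At the edge of the selection, the dimmest RNAs just inside were B330016D10Rik (-0.57 ± 0.17) and NR_027875 (-0.45 ± 0.17). Just outside, 24 genes were well above background on 7 arrays in their better channel, the brightest being AW011738 (-0.01 ± 0.60) and Ccl25 (-0.45 ± 0.64). Probes of the same gene gave a view of how far 1 probe can stand for an RNA. Of 54 other tested probes of 39 RNAs, 41 gave a ratio within 0.5 of the probe that represents the RNA, and r across these probes was 0.603. Among the 54, 5 were probes of coding transcripts, some of them brighter than the representing probe. Most of these RNAs were not called. For the 7 called RNAs with another probe, 6 of 7 such probes had the same sign. Only 2 of the 7 reached a size of 1 in the same direction. The second probe of Mirt1, whose sign opposes that of the brightest, was detected in 2 tumors. For 1500011B03Rik the brightest probe gave -0.38 and another 1.03. The second probes of NR_028432 (1.62), NR_024069 (-1.07), 1700001L05Rik (-0.63) and Snhg16 (0.62) had the sign of the first. Those of 2700046G09Rik (-0.02) and 4933409K07Rik (-0.08) were near 0.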

How the data were processed

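Scanner output of 8 Agilent 2-colour arrays on 1 slide was used. Per the labels' protocols, RNA was isolated with miRVana and RNeasy kits and labelled by low-input amplification. Median signals and backgrounds were deposited as intensity; the deposited log10 ratios were not used, and the deposited processed signals (intensity, background-subtracted and dye-normalized per the file headers) served as an alternative. Scans were quantified with Agilent Feature Extraction 10.9, per the submitters' processing notes. Signals were corrected with normexp (offset 50) and loess within arrays, leaving out control and outlier spots (limma 3.58.1 in R 4.3.3). A probe counted as above background where at least 0.5 of its spots were. Probes that met this in 4 or more arrays of either channel (29292 of 55681) gave the genes fitted together, and each mean log2 ratio of the 8 arrays was tested against 0 with limma. Errors are SDs over 8 arrays. Channel levels follow loess and Aquantile scaling. No spot was saturated. The number of arrays limits the precision.

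The members, gene lists and tests were chosen with earlier results of these data known. Named RNAs are the 10 largest called rises and falls, all members of the lists, the 5 widest and 5 narrowest spreads, and up to 3 called coding genes per list; other names were chosen after their values were seen. The procedure was tested on simulated data. The slide row is the array's position in the deposited file's name. Array coordinates are of build mm9; names, neighbours and sequences come from RefSeq on GRCm38.p6.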

Additional observations from a re-analysis of the deposited data

Results flagged for a closer look

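Of 73 noncoding RNAs examined, 11 had 1 array whose gap to the nearest other array was above Dixon's critical value for the gap as a share of the whole range. For independent groups not chosen by their values, chance alone gives about 1 in 20. Some of the 73 were chosen by the size or spread of their ratios, and all share the arrays. That rate is therefore no yardstick for the 11. Array 8 was the one apart for Rnu2-10 (3.81 against -2.81 to -0.18), Malat1 (3.28 against 0.49 to 1.44), Rnu1b6 (1.39 against -0.67 to -0.21), Rmrp (1.19 against -1.27 to -0.11), Rpph1 (1.19 against -0.63 to 0.11) and Snhg10 (0.71 against -0.49 to -0.09). Array 6 was apart for Airn (1.42 against -0.24 to 0.54) and for Dio3os (0.83 against -0.17 to 0.11). Gm8096 was at 3.99 on array 1, with the others at 0.89 to 2.11. Igf2os was at 1.26 on array 7, with the others at 3.14 to 4.17. 4930581F22Rik was at -2.86 on array 2, with the others at -1.85 to -0.97.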

How the results depend on the processing

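Over 25 alternatives the 31 called RNAs kept the sign of their ratio, 26 kept their call when any 1 array was left out, and 17 kept it under every alternative; 1600029O15Rik kept it under 13. Leaving out 1 array gave 13 to 16 RNAs called higher, 15 to 20 called lower and a median ratio of 0.02 to 0.06. The median was -0.08 with the deposited processed signals and -0.05 on the first row of the slide alone; the cause was not tested. Without pseudogenes, coding genes and unnamed accessions, an alternative chosen after seeing the data as was leaving out arrays 1, 2 and 8, 94 RNAs remained in the count, of which 8 were called higher and 7 lower. Neat1 also lost its call on either row alone (adjusted p 0.163 and 0.116). The test is paired by array throughout, since each array holds a tumor and a control and the ratio within it was tested. Tumor signal over background was weakest on array 8, where 40% of probes were well above it.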
